A study of Mus musculus with 6 samples.

Results

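The genes described here are those of the interferon response and of antigen presentation by MHC class I: the receptors for interferon, the transcription factors that carry its signal, sensors of viral RNA, antiviral effector genes, and the parts of the machinery that shows peptides on the cell surface. The list names 40 genes, and a member entered through probe sets annotated to its symbol alone, with the brightest probe set over the 6 arrays standing for the gene. This gave 38 measured members among 18193 genes. Isg15, a ubiquitin-like antiviral protein, was not measured because its probe set is shared with another gene symbol, and Ifi44 had no probe set listed under its symbol.

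Epithelial cells from the bulge, the stem cell region of the hair follicle, were taken from vibrissae of mice aged 7 to 8 weeks and grown for 6 days in atelocollagen gel. NFFSE medium held Noggin, FGF-7, FGF-10, the hedgehog agonist SAG and EGF, each at 50 ng/ml, and NFFS medium held the same factors without EGF. Both media therefore shared Noggin, both FGFs and SAG, and no culture received interferon as a labelled treatment. The cells of each of 3 repeats were divided between the media, which gave 3 NFFSE and 3 NFFS arrays (Affymetrix Mouse Genome 430 2.0). No strain is named in the labels, and all cells of the bulge were taken without sorting, so each array measured a mixture.

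Interferons are secreted proteins that warn neighbouring cells of infection. Type I interferons bind the IFNAR1 and IFNAR2 chains and type II interferon binds IFNGR1 and IFNGR2. JAK kinases then activate transcription factors that bind the interferon-stimulated response element (ISRE) or the gamma-activated site (GAS) in promoters. One outcome is more display of peptides by MHC class I molecules: proteasomes cut proteins, the TAP transporter moves the peptides into the endoplasmic reticulum, tapasin helps to load them, and beta-2-microglobulin completes the molecule. The hair bulge is known as a site of low MHC class I display in the resting skin.

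The promoter sequences below are shown because they hold the letters through which this family of genes is classically regulated. By the test described below, B2m and Gbp2 were called lower in NFFSE and Irf1 higher, while Ifit1 and Ifit3 were not called. They are RefSeq promoters on GRCm38.p6, written 5′ to 3′ on the gene's strand and ending before the start site. Capitals mark a match to the ISRE letters (GAAANNGAAA, or TTTCNNTTTC on the other strand) or, for Irf1, to the GAS letters (TTCNNNGAA, which read alike on both strands). Positions count back from the start site, so that -1 is the last base before it.
B2m, chr2:122147518-122147587, plus strand, ISRE match from -139: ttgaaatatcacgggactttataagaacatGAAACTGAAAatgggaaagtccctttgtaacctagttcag
Gbp2, chr3:142620574-142620643, plus strand, ISRE match from -59: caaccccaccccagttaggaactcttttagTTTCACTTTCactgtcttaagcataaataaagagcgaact
Ifit1, chr19:34640755-34640843, plus strand, ISRE matches from -104 and -85: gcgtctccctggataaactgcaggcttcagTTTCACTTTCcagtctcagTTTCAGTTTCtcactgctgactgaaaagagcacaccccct
Ifit3, chr19:34583343-34583446, plus strand, ISRE matches from -156 and -122: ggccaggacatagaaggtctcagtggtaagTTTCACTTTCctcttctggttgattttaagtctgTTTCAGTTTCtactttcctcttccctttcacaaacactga
Irf1 (upstream listed start), chr11:53769894-53769962, plus strand, GAS match from -90: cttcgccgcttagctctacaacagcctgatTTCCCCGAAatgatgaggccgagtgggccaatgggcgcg

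Of the 40 listed genes, 32 had a RefSeq promoter of 300 bases, 250 before the start site and 50 after it. ISRE letters on either strand stood in 13 of the 39 promoters of these genes (33.3%), against 3.44% of all 32851 promoters. GAS letters stood in 9 of the 39 (23.1%), against 8.3% of all. A match is only a match of letters. The called genes B2m and Gbp2 carried ISRE letters before the start site, and so did Ifit1, Ifit3, Gbp3, Oas1a, Rsad2, Stat2 and Bst2, which were not called. Among the 7 called genes with a promoter entry, 2 held ISRE letters and 3 (Irf1, Ifit2 and Ifnar1) held GAS letters. The Ifnar1 match did not lie wholly before the start site. Of the 32 members with a promoter, 13 held ISRE letters and 9 held GAS letters, against 3.99% and 9.55% of all genes with a promoter.

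Signals are linear array units, each array scaled by the submitters so that its trimmed mean is 500. A gene was called where the adjusted p of limma over all genes was under 0.05. In all, 8 of the 38 measured members were called between the media (21.1%), against 26.2% of all genes. Irf1 alone was higher in NFFSE, where 11% of all genes were called higher, and 7 members were lower (B2m, Tap1, Tap2, Ifnar1, Ifit2, Gbp2 and Trim25), where 15.2% of all genes were called lower. The NFFSE and NFFS arrays did not overlap for 17 members (44.7%), against 40.5% of all genes. Of these 17 members, 14 were lower in NFFSE, against 4011 of the 7370 genes without overlap among all genes. The median log2 difference, NFFSE minus NFFS, was -0.07 over the members and -0.01 over all genes. The share of members called thus lay near or below the share over all genes.

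Members differed in how far they stood above background. The highest signal of the TrpnX probe sets, bacterial controls taken here as the background, was 22.7. A gene is called dim below where its mean in both media was under 66.7, the signal at the 40th percentile of all genes. By this measure 10 members were dim (Ifit1, Ifit3, Stat2, Mx1, Mx2, Usp18, Oasl2, Oas2, Dhx58 and Gbp3), and none of them was called. All called members were among the other 28, of which 28.6% were called, against 39.7% of all genes that were not dim. Mx2, an antiviral GTPase, stayed at background on all 6 arrays.

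**Figure D1:**
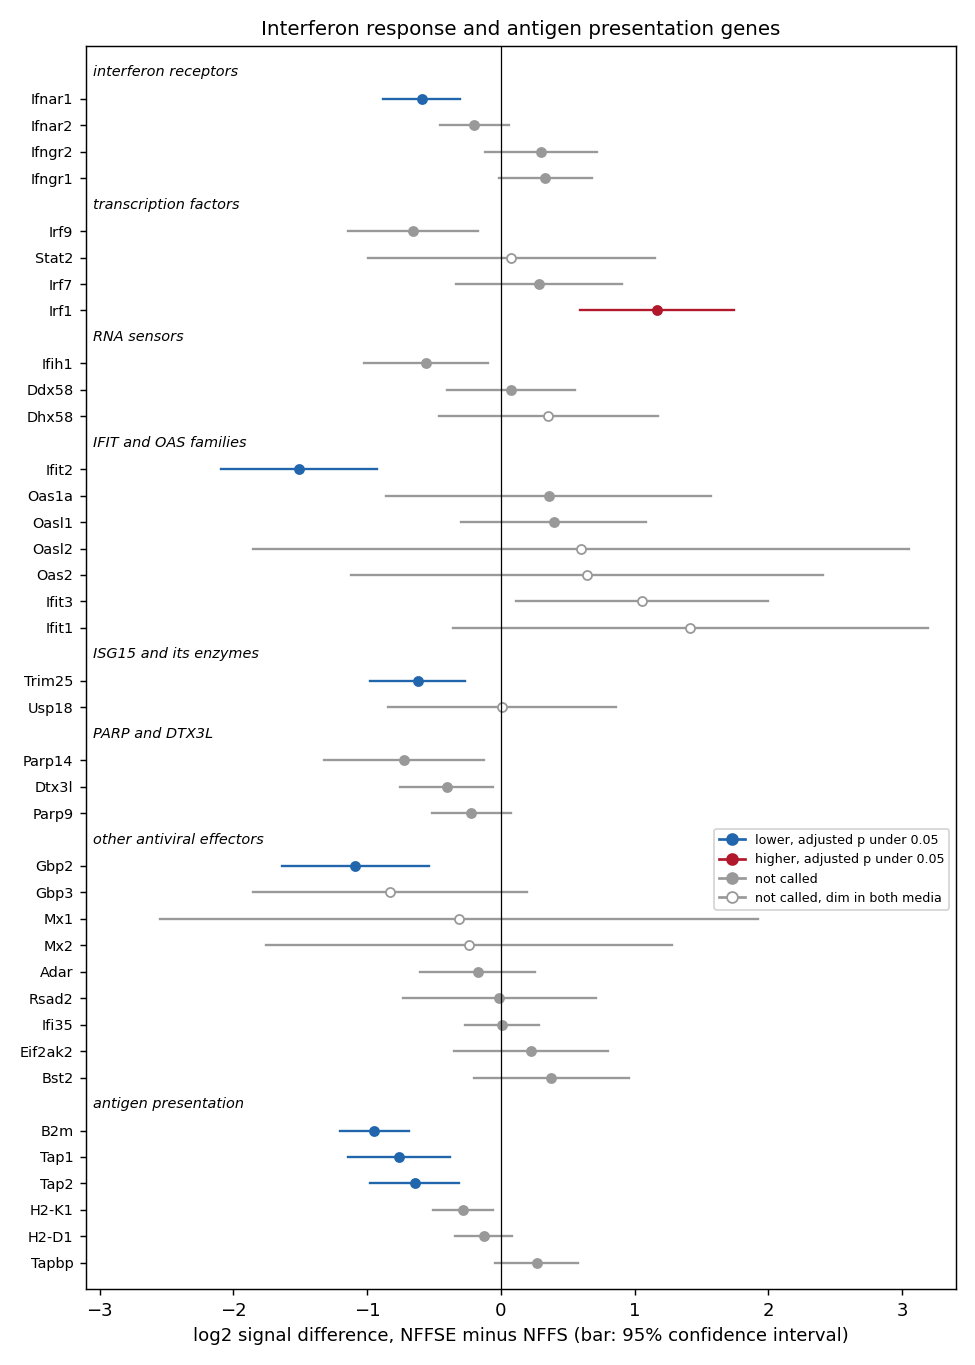
Log2 signal difference, NFFSE minus NFFS, of the 38 measured genes, grouped by role, with the 95% confidence interval of the limma fit as a bar (3 arrays per medium). Blue marks the 7 genes called lower in NFFSE, red marks Irf1, the gene called higher, grey marks genes not called, and open circles are genes dim in both media, among them Mx1, Ifit1, Oas2 and Oasl2 with intervals of several log2 units.

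Antigen presentation held 3 of the 7 lower members: of its 6 measured genes 3 were lower in NFFSE, where 15.2% of all genes were, and none was higher. B2m, which encodes beta-2-microglobulin, the chain that every MHC class I molecule needs, gave signals of 7876, 8554 and 10050 in NFFSE and 15830, 17360 and 17580 in NFFS. Every NFFSE array lay far below every NFFS array. The difference was 1.93-fold, -0.94 on the log2 scale (SE 0.117, adjusted p = 0.000224). Its other probe set gave 8339, 8736 and 8754 against 15200, 15830 and 16610, a fold of 1.84 in the same direction.

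Tap1 and Tap2 encode the paired chains of the peptide transporter. Tap1 gave 321.1, 323.9 and 387.4 in NFFSE and 678, 473.3 and 610.9 in NFFS. The groups did not overlap, and the signal was 1.7-fold lower in NFFSE (log2 difference -0.76, SE 0.17, adjusted p = 0.00775). Only the brightest of the 4 Tap1 probe sets was above background on all arrays, and with the mean of all 4 the call was lost (log2 difference -0.29, adjusted p = 0.652). Tap2 gave 727.4, 752.6 and 1026 in NFFSE and 1329, 1381 and 1171 in NFFS. The highest NFFSE array lay close to the lowest NFFS array, without overlap, and the fold was 1.56 lower in NFFSE (log2 difference -0.65, SE 0.15, adjusted p = 0.00932). The Tap2 call was lost without an intensity trend in the variance model (adjusted p = 0.0686).

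The heavy chains and tapasin did not pass the test in the main fit. H2-K1 gave 7441, 8692 and 8325 in NFFSE and 9906, 9633 and 10170 in NFFS, groups that did not overlap. Its log2 difference was -0.28 (95% interval -0.51 to -0.06, adjusted p = 0.0656), a fold of 1.22. H2-K1 was called lower with signals floored at background (adjusted p = 0.0498) and with the filter on dim genes (0.0365). All 4 of its probe sets had negative differences, and 1 of them was 1.54-fold lower (adjusted p over all probe sets 0.0296). H2-D1, the other classical heavy chain, gave 7856, 8637 and 8743 against 9079, 9238 and 9240, again without overlap, with a log2 difference of -0.13 (95% interval -0.34 to 0.08, adjusted p = 0.386). Tapbp, which encodes tapasin, ran from 4427 to 4724 in NFFSE and from 3048 to 4536 in NFFS, and the groups overlapped (log2 difference 0.27, adjusted p = 0.21). With each array centered on its median, Tapbp was called higher in NFFSE (0.46, adjusted p = 0.0295) and the H2-D1 difference turned to 0.07.

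The H2-D1 probe sets went in different directions. The 4 brightest of its 9 probe sets were lower in NFFSE, with log2 differences from -0.13 to -0.37, and none of these was called over all probe sets. A dimmer probe set gave 150.1, 222 and 325.6 in NFFSE and 23.7, 63.3 and 12.8 in NFFS, with 1 array at background. Its signal was 8.27-fold higher in NFFSE (adjusted p over all probe sets 0.00273). Another gave 65.6, 85 and 101.5 against 26.4, 37 and 29.2 (adjusted p over all probe sets 0.0175). A further dim probe set was 2.835-fold lower in NFFSE, at 18.5, 68.9 and 52.9 against 82.8, 138.8 and 133.8. It had 1 array at background, did not overlap between media and was not called (adjusted p over all probe sets 0.0517). These dimmer probe sets have names ending in x_at, the maker's mark for probes that can bind several related transcripts, and MHC class I genes are a family of close copies. The probe sets used for H2-D1 and H2-K1 carry the same mark, as does every other H2-K1 probe set. Values of H2-K1 and H2-D1 are uncertain to that extent. The plot of all probe sets shows that the B2m and Gbp2 probe sets lay close together or on the same side, while those of H2-D1, Tap1 and Trim25 spread to both sides of 0.

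**Figure D2:**
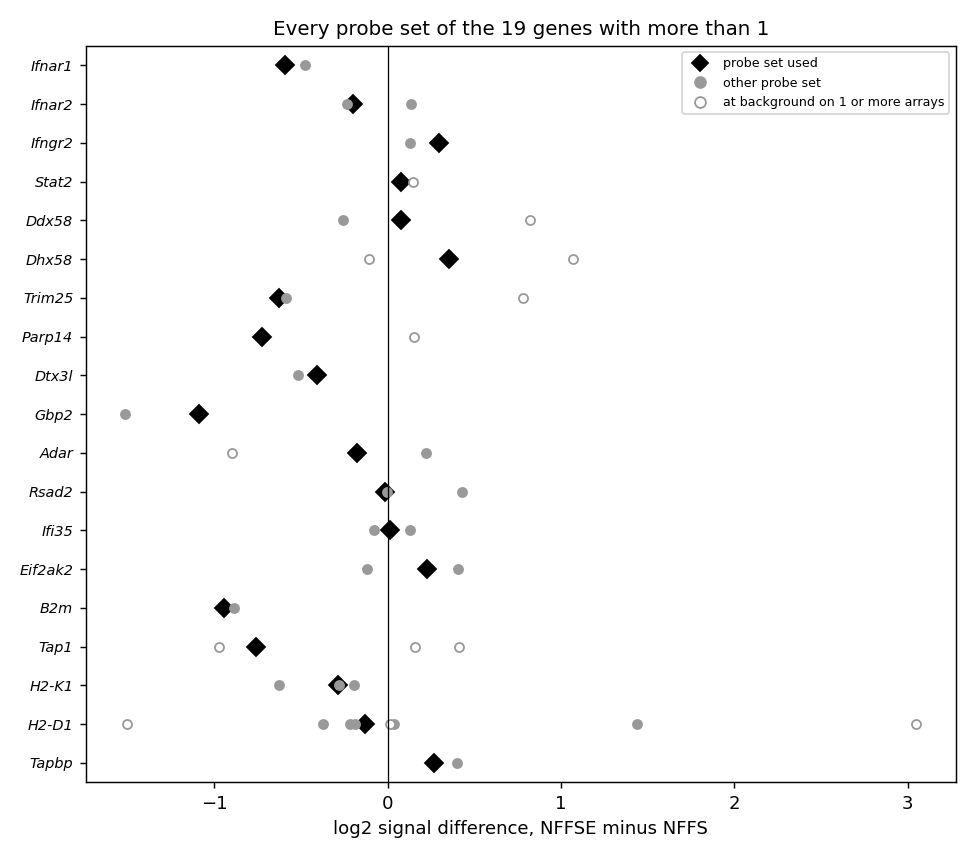
Log2 signal difference, NFFSE minus NFFS, of every probe set of the 19 genes with more than 1 probe set. Diamonds are the probe sets used (brightest over the arrays), circles the others, and open symbols were at background on 1 or more arrays; for 8 of the 19 genes all probe sets had the same sign, and an H2-D1 probe set at 3.05 lies farthest to the right.

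Further genes of peptide supply and class I display were counted from a wider list: of 16 measured, 4 were lower in NFFSE (Psmb8, Psmb9, Nlrc5 and Mr1) and 2 were higher (Psmb10 and Erap1), in all 37.5% called, against 26.2% of all genes. Psmb9, a catalytic subunit of the immunoproteasome, gave 240.5, 194.5 and 260.4 in NFFSE and 467.2, 503.8 and 559.7 in NFFS, a 2.21-fold lower signal in NFFSE (adjusted p = 0.000683). Psmb8, the second such subunit, gave 271.3, 342.8 and 356.1 against 667.8, 621.6 and 486.4, a fold of 1.83 (adjusted p = 0.00429). Neither gene had overlapping groups. Psmb10, the third subunit, moved the other way, with 1012, 1054 and 1008 in NFFSE and 672, 709.8 and 595 in NFFS (1.56-fold, adjusted p = 0.00259). The NFFSE arrays of Psmb10 were nearly alike and all above the NFFS arrays.

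Psmb9, Tap1, Psmb8 and Tap2 stand in this order next to each other on chromosome 17 in the RefSeq gene table, and all 4 were lower in NFFSE. Psmb10 lies outside this block, and so does B2m, on chromosome 2, which was lower in NFFSE. Any link between position and the direction of a difference was not tested. Tap1 and Psmb9 are read in opposite directions from 1 shared stretch of 225 bases between their start sites, which holds no ISRE or GAS letters and is 61.3% G and C. It is printed on the Tap1 strand, all in lower case since nothing in it matched.
Tap1 and Psmb9, chr17:34187331-34187555, plus strand: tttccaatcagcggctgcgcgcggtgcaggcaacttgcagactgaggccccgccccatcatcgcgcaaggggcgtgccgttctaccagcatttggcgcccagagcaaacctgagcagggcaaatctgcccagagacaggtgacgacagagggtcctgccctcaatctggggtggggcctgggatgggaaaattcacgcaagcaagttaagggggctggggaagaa

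Nlrc5, the transactivator of MHC class I genes, gave 63.1, 44.7 and 90 in NFFSE and 228.1, 249.4 and 209.6 in NFFS. All NFFS arrays stood far above all NFFSE arrays, and the fold was 3.61 lower in NFFSE (log2 difference -1.85, SE 0.295, adjusted p = 0.0011). Mr1, a class I-like molecule that presents vitamin metabolites, gave 160.2, 249.7 and 261.5 against 760.4, 640.4 and 738.4, a fold of 3.25 lower in NFFSE (adjusted p = 0.000167). Calr, the chaperone calreticulin, ran from 8460 to 9025 and from 8160 to 9348, with overlapping groups and a log2 difference of 0.01 (adjusted p = 0.961). The genes called higher in this list numbered 1 without NFFSE replicate 1, 2 or 3 or NFFS replicate 3, when probe sets were averaged and without the intensity trend, and 4 without NFFS replicate 2 and after median centering.

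MHC class II genes, which present peptides in specialised antigen-presenting cells, gave 1 lower gene of 7 (14.3%, against 15.2% of all genes). This was H2-Eb1, with 69.2, 18.9 and 79.5 in NFFSE and 180.5, 161.8 and 204.1 in NFFS (adjusted p = 0.015), a call that was lost without NFFS replicate 3 (adjusted p = 0.0538), with signals floored at background (0.0751), without the intensity trend (0.078) and by the methods' t-test (0.142), with 0 lower genes in each. H2-Ab1 ran from 193.1 to 661.4 in NFFSE and from 195 to 239.3 in NFFS, with overlapping groups; it was not called (adjusted p = 0.114), but passed without NFFSE replicate 1 (adjusted p = 0.00209), with the replicate block (0.043) and after median centering (0.047). Cd207, the defining marker of Langerhans cells, was at background on all 6 arrays, as was the T cell marker Cd3e. Each was the only gene of its marker list at background on every array. The leukocyte markers Cd68, Csf1r, Adgre1 and Lyz2 were above background on all 6 arrays. At background on 1 or more arrays were 5 of 9 leukocyte and 3 of 5 Langerhans cell markers. The summed signal of 5 Langerhans cell markers, which include these class II genes, was 374.8 to 918.6 in NFFSE and 505 to 554.8 in NFFS, and that of 9 leukocyte markers was 442.6 to 597.2 and 475.9 to 518.

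Other markers moved with the media. The sum of 5 keratinocyte markers was 93860 to 106200 in NFFSE and 77070 to 87520 in NFFS, with Krt14 and Epcam called higher in NFFSE, while Trp63 (log2 difference -0.24) and Cdh1 (-0.07) were not called. The sum of 6 fibroblast markers was 331.1 to 366.4 in NFFSE and 400.6 to 521.4 in NFFS, with Col1a2 called lower in NFFSE, but 4 of the 6 had positive differences and their median log2 difference was 0.17. The sums of endothelial markers (214.5 to 262.6 and 171.2 to 248.7) and of melanocyte markers (340.4 to 541.7 and 384.7 to 548.9) overlapped between media. The log2 signal of the Gapdh 3′ control probe set minus that of the 5′ one was -0.36 to -0.38 in NFFSE and -0.6 to -0.64 in NFFS. The part of these shifts in the lower class I and interferon genes was not tested. In these mixed cultures, fewer cells of a type and less RNA per cell cannot be told apart.

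**Figure D3:**
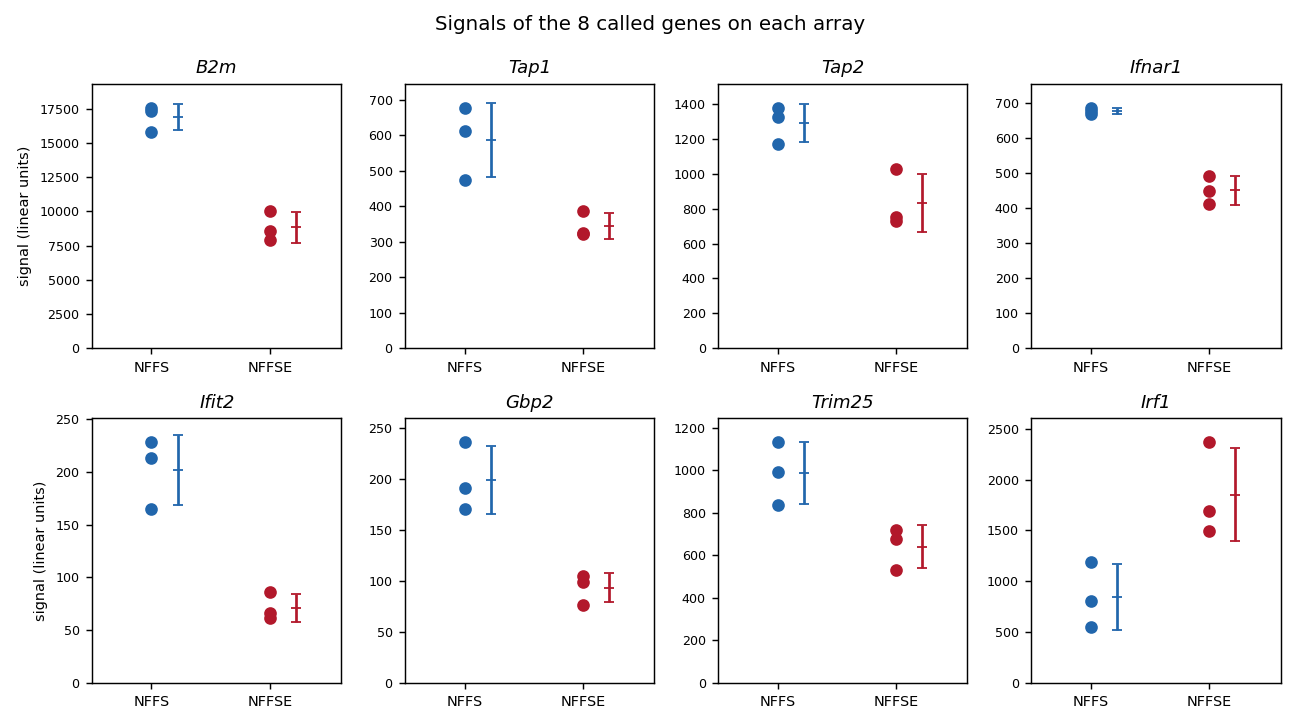
Linear signal of the 8 called genes on each of the 6 arrays, with the mean and SD beside the points (n = 3 per medium); each panel has its own axis from 0. In the panels of B2m, Tap1, Tap2, Ifnar1, Ifit2, Gbp2 and Trim25 every NFFSE array lies below every NFFS array, and in the Irf1 panel every NFFSE array lies above.

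Among the 4 interferon receptor chains, Ifnar1 was lower in NFFSE and the other three did not pass the test. Ifnar1 gave 492.6, 449.6 and 410.4 in NFFSE and 677.1, 667.9 and 686.3 in NFFS. The NFFS arrays were nearly alike and all above the NFFSE arrays, and the fold was 1.51 (log2 difference -0.59, SE 0.129, adjusted p = 0.00672). The call was lost with arrays centered on their medians (-0.4, adjusted p = 0.0537) and with the mean of both probe sets (adjusted p = 0.0775). Ifnar2, its partner chain, gave 711.8, 762 and 736.8 against 789.3, 918.9 and 829.6, groups that did not overlap, with a log2 difference of -0.2 (95% interval -0.46 to 0.06, adjusted p = 0.268).

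The receptor chains for type II interferon lay on the other side of 0. Ifngr1, the ligand-binding chain, gave 617.7, 498.6 and 567.5 in NFFSE and 380.2, 503.2 and 457.4 in NFFS. The groups overlapped by a single array, and the log2 difference was 0.33 (95% interval -0.01 to 0.68, adjusted p = 0.156), a call only after median centering (0.53, adjusted p = 0.0355). Ifngr2 ran from 1027 to 1496 and from 843.3 to 1309, with overlap and a log2 difference of 0.3 (adjusted p = 0.296). In the RefSeq gene table Ifnar1 and Ifngr2 are neighbours on chromosome 16.

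The ligands themselves were mostly dim. Of 11 listed interferon genes 7 were measured, while Ifnk, Ifne, Ifnl2 and Ifnl3 were not, so nothing can be said of these. Among the 7 measured, 6 were dim and none was called, but only 2 were at background on all 6 arrays. Ifnb1, interferon beta, gave 37.1, 54.3 and 42 in NFFSE and 43.3, 38.9 and 8.73 in NFFS, with overlapping groups. Ifng, interferon gamma, lay between 1.51 and 11.1 in NFFSE and between 2.92 and 22.7 in NFFS, at background on 5 of the 6 arrays. Ifnz, the seventh ligand and not dim, ran from 118.6 to 171.7 and from 165.7 to 179.2, with overlap (log2 difference -0.32, adjusted p = 0.355).

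Irf1 was the only member called higher in NFFSE. It encodes a transcription factor that is itself induced by interferon through a GAS such as the one printed above and drives many of the other genes. Its signals were 1696, 1490 and 2366 in NFFSE and 802.2, 1193 and 550.7 in NFFS. The groups did not overlap, although both were widely spread, and the fold was 2.25 (log2 difference 1.17, 95% interval 0.59 to 1.75, adjusted p = 0.00743). The call was lost with signals floored at background (adjusted p = 0.0789) and without the intensity trend (adjusted p = 0.0739), in both of which the difference stayed at 1.17.

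Irf9, the DNA-binding part of the complex that binds the ISRE, pointed the other way. It gave 128, 126.4 and 178.7 in NFFSE and 228.1, 238.4 and 206.8 in NFFS, without overlap. The log2 difference was -0.65 (95% interval -1.14 to -0.17), which just missed the threshold (adjusted p = 0.0508) and passed without NFFSE replicate 3 (-0.82, adjusted p = 0.0281). Irf9 also passed with the mean of all probe sets (adjusted p = 0.0396) and with the filter on dim genes (0.0268). Irf7, which amplifies the type I response, ran from 101.8 to 123.5 and from 71.4 to 111.4, with overlap (log2 difference 0.29, adjusted p = 0.52). Stat2 was dim, with 25.7 to 68.2 in NFFSE and 31.4 to 43 in NFFS, and a log2 difference of 0.08 (95% interval -1 to 1.15).

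Upstream of these factors, 4 of 13 measured genes of JAK-STAT and IRF signaling were called (30.8%), near the 26.2% of all genes. Jak2, a kinase of the type II receptor and of many cytokine receptors, gave 866.1, 795 and 1103 in NFFSE and 2792, 2882 and 3182 in NFFS. The groups stood far apart, with a fold of 3.23 lower in NFFSE (log2 difference -1.69, SE 0.135, adjusted p = 1.63e-05). Jak1 and Tyk2, the kinases of the type I receptor, were higher in NFFSE by 1.38-fold (adjusted p = 0.00842) and 1.59-fold (adjusted p = 0.0151). Ptpn2, a phosphatase that switches JAK-STAT signaling off, was higher by 1.29-fold (adjusted p = 0.0318). The count of higher genes fell from 3 to 1 without NFFSE replicate 2 or NFFS replicate 3, and also with the mean of all probe sets, without the intensity trend and by the methods' t-test. The lower genes numbered 2 without NFFS replicate 2 and with the mean of all probe sets. Irf3 ran from 1372 to 1472 and from 1398 to 1429 (log2 difference 0.004), and Socs1 was not called either (log2 difference -0.12, adjusted p = 0.84).

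No RNA sensor among the members was called. Ifih1, which encodes the long double-stranded RNA sensor MDA5, gave 162, 149.5 and 219.3 in NFFSE and 284.2, 252.2 and 237.2 in NFFS. The groups did not overlap, and the log2 difference of -0.56 (95% interval -1.03 to -0.09) did not pass (adjusted p = 0.0781). Without NFFSE replicate 3 it did (-0.73, adjusted p = 0.0377), and also with the filter on dim genes (adjusted p = 0.0448). Ddx58, which encodes RIG-I, ran from 298.9 to 441.4 and from 263.9 to 417.6, with a log2 difference of 0.08 (95% interval -0.4 to 0.55). Dhx58, which encodes the related protein LGP2, was dim, at 46.7, 47 and 55.2 against 41.2, 37.4 and 37.6 (log2 difference 0.35, adjusted p = 0.554).

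Of 12 measured genes further along nucleic acid sensing, 3 were higher in NFFSE and none was lower, so that 25% were called, near the 26.2% of all genes. Ikbke, a kinase that activates IRF factors and NF-kB, gave 283.8, 308 and 293.8 in NFFSE and 77.4, 53.9 and 76.5 in NFFS, a 4.32-fold higher signal (adjusted p = 0.000118). The groups stood far apart. Myd88, the adaptor of most Toll-like receptors, gave 1369, 1242 and 1221 against 799.3, 718.4 and 634.9 (1.79-fold, adjusted p = 0.000699). Tank, which links such adaptors to their kinases, was 1.43-fold higher (adjusted p = 0.0107). Mavs, the adaptor of the RNA sensors, ran from 172.7 to 371.1 and from 247.2 to 266 (log2 difference -0.12, adjusted p = 0.811). Sting1, the adaptor of DNA sensing, gave 7.77, 64.9 and 56 against 123.5, 101.9 and 168.3, groups that did not overlap, with 1 NFFSE array at background, and did not pass (log2 difference -2.08, adjusted p = 0.0566). It passed when NFFSE replicate 1, 2 or 3 was left out (adjusted p = 0.0482, 0.0372 and 0.0484), with the replicate block (0.0231), with its probe sets averaged (0.0301), with 16 added (0.033) and with the filter on dim genes (0.034).

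The 3 measured IFIT genes, whose proteins bind foreign RNA or translation factors, did not move as a set. Ifit2 gave 66.2, 85.8 and 61.2 in NFFSE and 227.8, 164.6 and 213.2 in NFFS. Every NFFSE array lay below every NFFS array, and the fold was 2.84 lower in NFFSE (log2 difference -1.51, SE 0.262, adjusted p = 0.00186), a call kept under all 14 other settings tried. Ifit3, its neighbour in the RefSeq gene table, gave 58.6, 46.4 and 69.6 in NFFSE and 35.6, 29.9 and 19.8 in NFFS. These groups did not overlap either, but in the opposite order, with a log2 difference of 1.05 that did not pass (95% interval 0.11 to 2, adjusted p = 0.1) and passed with signals floored at background (adjusted p = 0.0431). Ifit1, at 14, 41.7 and 36.6 against 20.6, 3.41 and 16, was at background on 4 of 6 arrays. Ifit1 and Ifit3 are the genes with a pair of ISRE matches printed above, and Ifit2 held no ISRE letters in its promoter windows. B2m and Gbp2, called lower in NFFSE, also held ISRE letters. Any link between these letters and the direction of a difference was not tested.

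The OAS family, enzymes that make the signal for RNA decay, and their relatives were faint. Oasl1 ran from 90.5 to 138.8 in NFFSE and from 73.9 to 120.1 in NFFS, with a log2 difference of 0.4 (95% interval -0.3 to 1.09, adjusted p = 0.414). Oas1a ran from 43.3 to 102.6 and from 27 to 107.2 (adjusted p = 0.702). Oas2 and Oasl2 were dim, with ranges of 10.9 to 93 and 4.39 to 22.9 in NFFSE and 15.9 to 46.1 and 1.42 to 21.2 in NFFS. All of these groups overlapped, and the intervals for Oas2 (-1.12 to 2.41) and Oasl2 (-1.85 to 3.05) leave changes of several fold in either direction possible.

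Gbp2, a guanylate-binding protein that attacks intracellular microbes, was lower in NFFSE. It gave 99.3, 76.8 and 104.3 in NFFSE and 235.7, 170.6 and 190.6 in NFFS, groups well apart, with a fold of 2.13 (log2 difference -1.09, SE 0.247, adjusted p = 0.00822). Its other probe set gave 72.1, 48 and 80.6 against 227, 138 and 206.3, a fold of 2.85. The call was kept under all 14 other settings tried. Gbp3, a relative from the same gene family, was dim, with 22.5, 29.7 and 19.2 against 49.5, 49 and 29.7 (log2 difference -0.83, adjusted p = 0.234). Its groups overlapped narrowly.

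Trim25, which encodes a ubiquitin and ISG15 ligase that acts on RIG-I, was lower in NFFSE by a less stable call. It gave 674.6, 529.5 and 719.1 in NFFSE and 1131, 837.3 and 990.7 in NFFS. The groups did not overlap (fold 1.54, log2 difference -0.62, SE 0.159, adjusted p = 0.0152). The second probe set gave 1.5-fold in the same direction. The third, at background on 1 array, lay on the other side of 0, and the call was lost with the mean of all probe sets (adjusted p = 0.772), with signals floored at background (adjusted p = 0.0631), without the intensity trend (adjusted p = 0.0832), without NFFSE replicate 2 (adjusted p = 0.0707) and without NFFS replicate 1 (adjusted p = 0.0596). Usp18, the enzyme that removes ISG15, was dim, with 36.4 to 59.2 and 42.4 to 58.2 and a log2 difference of 0.01.

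Parp14, Dtx3l and Parp9 stand side by side in the RefSeq gene table, and the proteins DTX3L and PARP9 work as a pair. None was called, and all 3 had negative differences. Parp14 gave 78.9, 75.9 and 76.7 in NFFSE and 140.2, 102.6 and 144.4 in NFFS, without overlap (log2 difference -0.73, 95% interval -1.32 to -0.13, adjusted p = 0.0745). Dtx3l gave 585.4, 465.2 and 456.8 against 735.3, 569.7 and 689.4, with 1 NFFSE array within the NFFS range (log2 difference -0.41, adjusted p = 0.0849). In the fit with the replicate number as a block, Dtx3l passed (adjusted p = 0.0435). Parp9 gave 478.1, 460.9 and 460 against 602.9, 524.4 and 507.9, without overlap (log2 difference -0.22, 95% interval -0.52 to 0.07, adjusted p = 0.272). Without NFFS replicate 2, both Parp14 (-0.88, adjusted p = 0.0493) and Dtx3l (-0.51, adjusted p = 0.0383) passed. Parp14 also passed without the intensity trend (adjusted p = 0.0435) and with the filter on dim genes (0.0388).

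The remaining effectors gave no call. Ifi35, a partner of NMI, had a narrow interval around 0: signals of 1548 to 1889 and 1537 to 1935 gave a log2 difference of 0.01 (95% interval -0.26 to 0.29). Adar, the RNA editing enzyme, ran from 300.3 to 426.5 and from 328.9 to 451.6 (log2 difference -0.17, adjusted p = 0.584). Eif2ak2, which encodes the kinase PKR, ran from 103.4 to 158.7 and from 103.4 to 122.7 (0.22, adjusted p = 0.596). For these genes the groups overlapped. Bst2, which encodes tetherin, ran from 99.7 to 136.9 and from 86.7 to 101.5 (0.38, adjusted p = 0.348), and Rsad2, which encodes viperin, from 65.4 to 117.1 and from 76.2 to 102 (-0.01, 95% interval -0.73 to 0.71). Mx1 was dim, with 31.9, 3.9 and 38.6 against 36.4, 6.33 and 40.2, low in replicate 2 of both media.

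**Figure D4:**
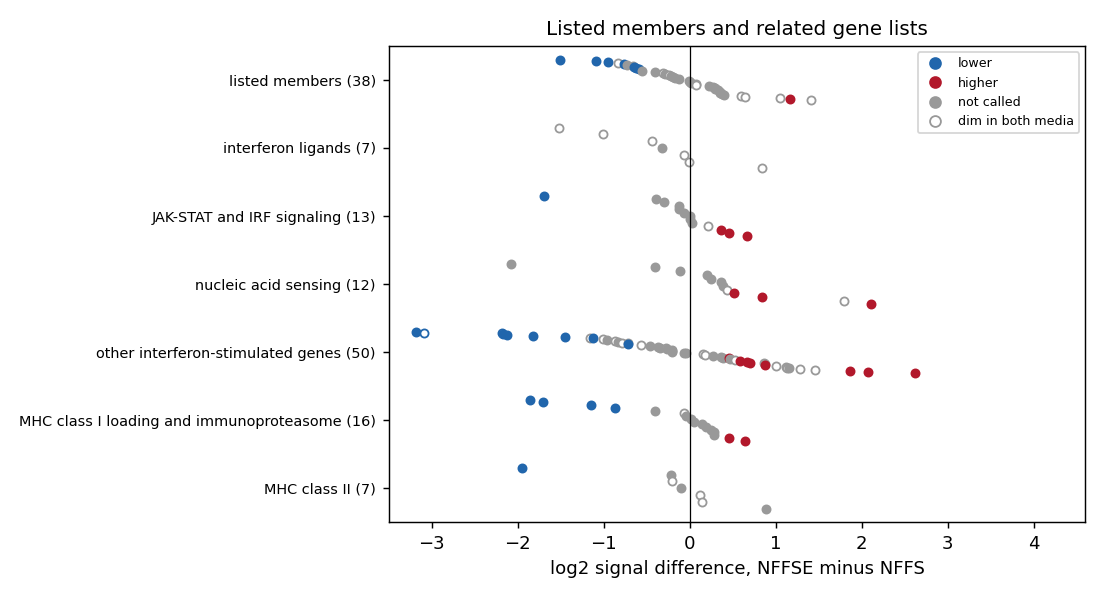
Log2 signal difference, NFFSE minus NFFS, of each measured gene among the listed members and in 6 related lists, with the number of genes in brackets; vertical spread within a row only separates points. Blue and red mark genes called lower and higher in NFFSE, grey those not called, and open circles are dim in both media; the other interferon-stimulated genes hold 9 lower and 8 higher genes, spread over both sides of 0.

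A wider list of other interferon-stimulated genes also divided. Of 50 measured, 8 were higher in NFFSE and 9 were lower (34% called, against 26.2% of all genes), with a median log2 difference of -0.13, against -0.01 over all genes. Ifi27l2a, an interferon-induced gene of the ISG12 family, gave 28.1, 54.3 and 77.7 in NFFSE and 284.7, 521 and 602.9 in NFFS, a 9.1-fold lower signal (adjusted p = 0.000245). Ifi27, of the same family, gave 1038, 1232 and 1446 against 2461, 2888 and 2669 (2.17-fold lower, adjusted p = 0.000183). Neither overlapped between media. Cmpk2, a mitochondrial nucleotide kinase, gave 42.2, 51.9 and 40.8 against 189, 204.4 and 212.3 (4.51-fold lower, adjusted p = 0.000197). It is the neighbour of Rsad2 in the RefSeq gene table, and Rsad2, above, gave a difference near 0.

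On the other side stood Slfn2, a Schlafen family gene, with 503.4, 695.2 and 349.7 in NFFSE and 87.1, 83.7 and 73.3 in NFFS (6.12-fold higher, adjusted p = 5.59e-05). Cxcl10, the chemokine that attracts T cells, gave 142.2, 155.3 and 136.2 against 35.9, 36.4 and 30.6 (4.22-fold higher, adjusted p = 0.000586). Ifitm3, which blocks viral entry at membranes, gave 18180, 19580 and 18470 against 11590, 11040 and 11990 (1.62-fold higher, adjusted p = 0.000503). In each of these genes all NFFSE arrays lay above all NFFS arrays. Genes classed together as interferon-stimulated were thus called in both directions in the same cultures.

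**Figure D5:**
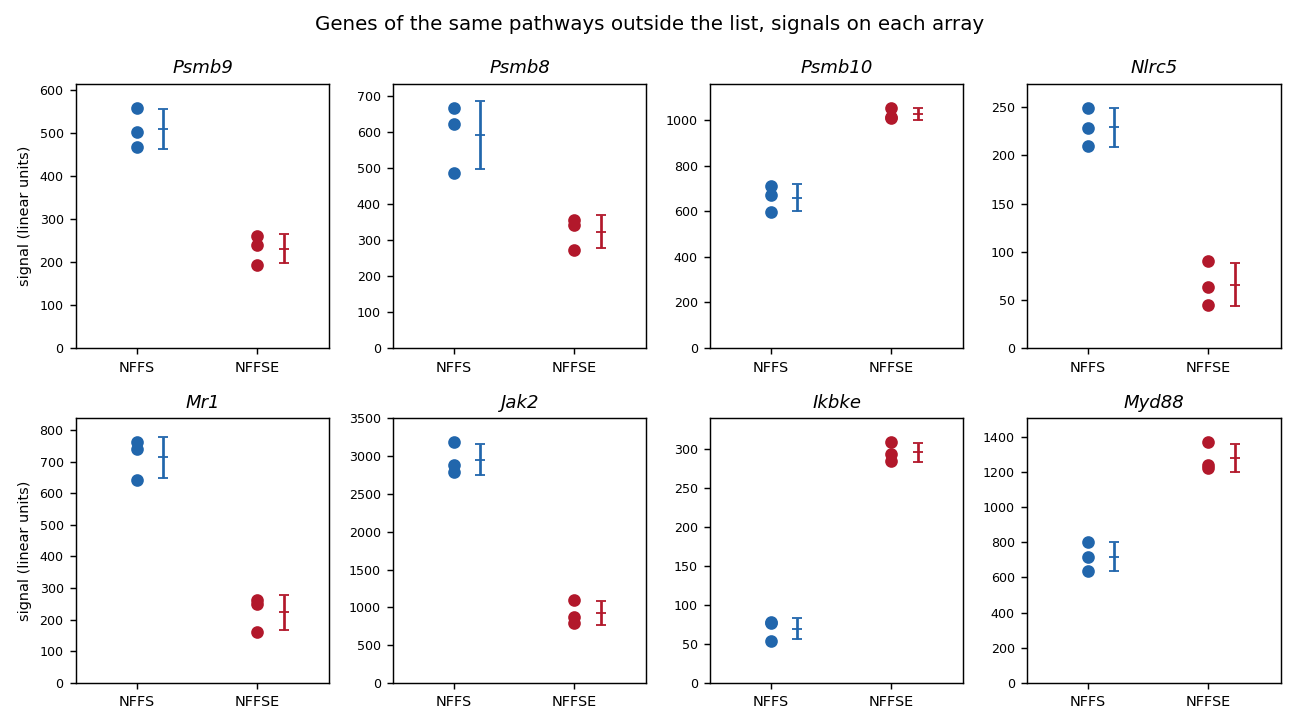
Linear signal on each of the 6 arrays, with mean and SD (n = 3 per medium), of 8 genes outside the list of 40; each panel has its own axis from 0. Psmb9, Psmb8, Nlrc5, Mr1 and Jak2 lie lower in NFFSE on every array, and Psmb10, Ikbke and Myd88 lie higher.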

How the data were processed

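The authors extracted RNA from 6 cultures, 3 per medium, and labelled 100 ng for Affymetrix Mouse Genome 430 2.0 arrays. The deposited values are linear intensity signals from MAS5 (the sources used here do not give its version), and on each array the 2% trimmed mean was 500. Of 45101 probe sets, 34945 have 1 gene symbol, 932 several and 9160 none in the annotation used, and 64 are controls. The brightest probe set by mean log2 signal stood for a gene. Log2 signals of 18193 genes were fitted with limma 3.58.1 (R 4.3.3), lmFit and eBayes with an intensity trend, medium only, and p-values were adjusted over all genes (Benjamini-Hochberg); the fit was tested on simulated data. The number of arrays limits the precision. All intervals are 95% intervals of this fit.

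Every measured member is named. From each wider list, up to 4 called genes with the smallest p and up to 2 defining genes are described; Erap1 is named besides, as chosen after its value was seen. The members and lists were chosen with earlier results of these data known, so counts over them carry no test. The series' design states that every repeat split its cells over both media; deviations of same-numbered arrays from their group means correlated at 0.066, 0.042 and 0.037. The main fit has no block. Alternatives were median centering, the mean of all probe sets, a floor at background, 16 added to signals, no trend, a filter on dim genes, the replicate block, the methods' t-test, and leaving out each array. Promoters and gene order come from RefSeq tables. No protein sequence was used here.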

Additional observations from a re-analysis of the deposited data

How the results depend on the processing

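Ifit2, Gbp2 and B2m stayed lower and called under all 14 alternatives; the calls lost by Tap1, Tap2, Ifnar1, Trim25 and Irf1 are given beside each gene, except those under the methods' t-test with Benjamini-Hochberg adjustment (Tap1 0.0651, Tap2 0.0877, Trim25 0.106, Irf1 0.127). Members called higher numbered 3 after median centering, 0 without the intensity trend and 0 by the methods' t-test. Members called lower numbered 11 of the 28 tested with the filter on dim genes, where 2961 of 11525 genes were lower. With this filter 44.4% of the genes tested were called in either direction. Members called lower numbered 4 by the t-test and 6 to 9 when 1 array was left out, where 2132 to 2704 of all 18193 genes were lower. Over all genes the counts higher and lower were 2002 and 2771, against 3013 and 1974 after centering (which moved the median of all genes to 0.18 and that of the members to 0.12), 1323 and 1928 without the trend, and 1262 and 1702 by the t-test. With the replicate block, 1 member was higher and 8 were lower, with Dtx3l added, while 2171 of all genes were higher and 2967 lower. All same-numbered pairs correlated above 0 and all others below. Deviations from a group mean sum to 0, so the signs of the others are not separate evidence of pairing.

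Differences that changed sign were small or dim, apart from that of Oas1a, which was not dim (0.36 in the main fit). After centering Rsad2 was 0.18, Adar 0.0203 and H2-D1 0.07, and with the mean of all probe sets Rsad2 was 0.14 and H2-D1 0.24. When 1 array was left out, the range was -0.34 to 0.36 for Stat2, -0.25 to 0.17 for Rsad2, -1.18 to 0.74 for Mx1, -0.14 to 0.21 for Usp18, -0.0627 to 0.103 for Ifi35, -0.63 to 1.33 for Oasl2, -0.21 to 0.78 for Oas1a and -0.11 to 0.22 for Ddx58. The cause of these changes was not tested. Low signal limits the 10 dim members most.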
